A study of Mus musculus with 24 samples.

Results

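The genes described here encode abundant liver proteins that carry lipids, hormones and other small molecules: Alb, Ttr, Apoa1, Apoa2, Apob, Apoe, Apoh, Ambp, Fetub and Fabp1. They were taken by symbol from the count table, which held all 10 of them among 24015 genes, and all 10 passed the low-count filter in every comparison. Livers came from female mice of the B6C3F1 cross, labelled as 5 to 6 weeks old, an age the labels also give for purchase. The furan groups received 8 mg furan per kg body weight per day by gavage in corn oil for 21 days, the control groups received the oil alone, and all livers were taken 4 hours after the last dose. Each liver gave a snap-frozen piece, a piece held in formalin for 18 hours and embedded in paraffin (FFPE 18 h), and a piece held in formalin for 3 weeks (FFPE 3 weeks), so 4 furan and 4 control animals gave 24 libraries in 6 groups.

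Hepatocytes make most plasma proteins and secrete them into the sinusoidal blood. Albumin carries fatty acids and drugs and sustains the osmotic pressure of plasma, transthyretin carries thyroxine and, with retinol-binding protein, vitamin A, and the apolipoproteins build and steer lipoproteins: Apob is the structural protein of very low density particles, Apoa1 and Apoa2 are the main proteins of high density particles, and Apoe is a ligand for uptake by receptors of the LDL receptor family. Fabp1 is not secreted: it is the fatty acid-binding protein of the hepatocyte cytosol, so the name of secreted carriers does not cover it.

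Promoters of 9 of the 10 genes, without Ttr, came from the RefSeq annotation of GRCm38.p6, a later build than the mm9 of the counts. Those of Alb, the most abundant of the 10, of Fetub, which fell with furan in all pieces, and of Apoa1, which fell in FFPE 18 h, are printed as the 250 bases before the start of transcription (chr5:90460620-90460869, chr16:22918132-22918381 and chr9:46228380-46228629, all on the plus strand). For Fetub the first of a pair of listed starts is shown.
Alb: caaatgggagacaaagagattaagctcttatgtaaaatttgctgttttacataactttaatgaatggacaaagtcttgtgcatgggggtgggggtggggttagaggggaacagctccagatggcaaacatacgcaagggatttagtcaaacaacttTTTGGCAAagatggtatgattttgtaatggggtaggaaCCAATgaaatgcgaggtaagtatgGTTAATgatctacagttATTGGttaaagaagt
Fetub: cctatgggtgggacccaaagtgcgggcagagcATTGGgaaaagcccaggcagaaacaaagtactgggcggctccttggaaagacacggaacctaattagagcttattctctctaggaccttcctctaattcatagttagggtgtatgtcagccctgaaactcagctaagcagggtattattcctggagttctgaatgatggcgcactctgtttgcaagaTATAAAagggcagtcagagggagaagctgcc
Apoa1: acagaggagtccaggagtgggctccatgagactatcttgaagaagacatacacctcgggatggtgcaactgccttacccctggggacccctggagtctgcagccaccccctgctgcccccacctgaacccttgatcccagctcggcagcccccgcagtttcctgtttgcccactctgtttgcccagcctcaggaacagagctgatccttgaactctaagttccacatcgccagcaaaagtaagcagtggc
Capitals mark matches, on either strand, to the motif TATAAA of the TATA-binding protein, the motif CCAAT of NF-Y, the motif GTTAAT known from HNF1 sites, the forkhead core TGTTTAC, the C/EBP core TTGCNNAA and the antioxidant response core TGACNNNGC. Alb held the NF-Y motif on both strands and those of HNF1 and C/EBP, and the Apoa1 window held none of these letters. The printed Fetub window held the motif of the TATA-binding protein 31 bases before the start and that of NF-Y. The window of the other Fetub start, not printed, held the forkhead core and the antioxidant response core. In 32851 listed promoter windows of this length the motif of the TATA-binding protein was found in 12.4%, that of NF-Y in 33.8%, that of HNF1 in 6.43%, the forkhead core in 3.17%, the C/EBP core in 9.56% and the antioxidant core in 10.2%. A match is a description of the letters and was not tied to binding here.

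Total counts per library ran from 37978435 to 49326373 in frozen, 22889146 to 28054631 in FFPE 18 h and 5560002 to 11019297 in FFPE 3 weeks libraries. The frozen library of control animal 3 stood apart from its group, with a median absolute log2 deviation of 0.460 from the median of the other 3 controls, against 0.162 to 0.217 in the other frozen libraries. Summed levels of 10 hepatocyte enzymes (Cps1, Cyp2e1 and others, none at 0) were 22576 to 23570 CPM (counts scaled to a common library total) in furan and 26481 to 31632 CPM in control frozen libraries, and those of 10 sinusoidal endothelial markers were 637 to 666 CPM in furan and 752 to 839 CPM in control. In FFPE 18 h the enzymes summed to 17896 to 19357 CPM in furan and 20731 to 24306 CPM in control, and the endothelial markers to 736 to 790 CPM in furan and 870 to 930 CPM in control. In FFPE 3 weeks the enzymes summed to 12446 to 13245 CPM in furan and 14519 to 17709 CPM in control. The endothelial markers overlapped there, at 727 to 891 CPM in furan and 800 to 909 CPM in control. Macrophage markers overlapped between treatments, with control animal 4 highest in all 3 pieces (856 CPM in its frozen piece). In whole liver, fewer cells of a type and less RNA per cell cannot be told apart, and the part of these markers in the results below was not tested.

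Together the 10 genes took 17.2 to 18.0% of all counts in furan and 16.2 to 17.1% in control frozen libraries. Alb alone made up 69.8% ± 0.562 of these counts in furan and 66.0% ± 0.992 in control frozen livers (SD, n = 4 each). For the other 9 genes together the order was the opposite, with 5.21 to 5.38% of all counts in furan and 5.40 to 5.74% in control frozen libraries. Neither range overlapped between treatments in frozen tissue, but in FFPE 18 h the total was 13.4 to 14.5% in furan and 12.5 to 13.7% in control, and in FFPE 3 weeks 8.40 to 9.73% in furan and 8.90 to 9.96% in control. These shares describe the libraries and were not tested.

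**Figure D1:**
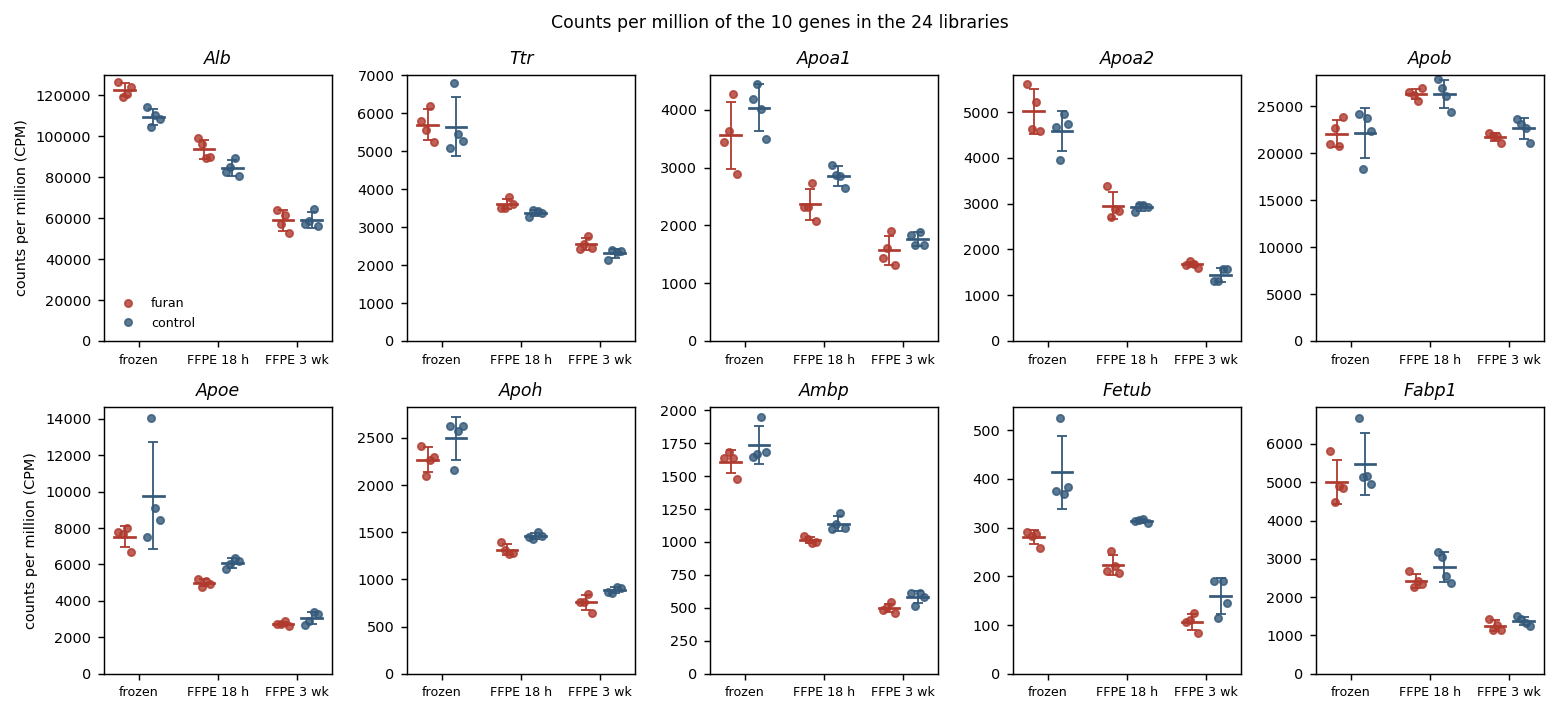
CPM of each gene (vertical axes, from 0) in the 24 libraries, by piece of liver, with furan in red left of control in blue; points are animals, and bars give the mean ± SD of 4. Fetub is lower in every furan frozen library (259 to 291 CPM) than in any control (369 to 525 CPM), 9 genes sit lower in formalin-fixed than in frozen pieces, and Apob does not.

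**Figure D2:**
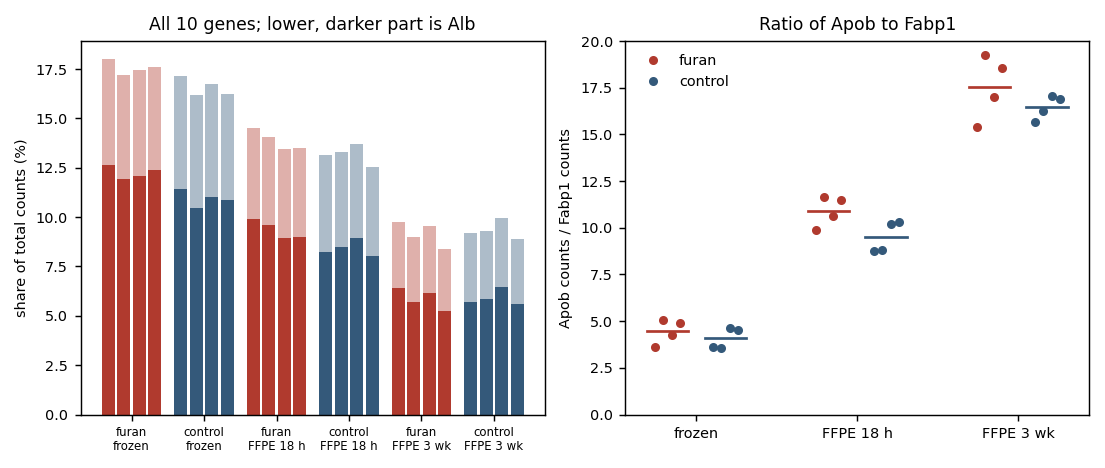
Left, share of total counts (%) held by the 10 genes in each library, with the Alb part darker; right, ratio of Apob to Fabp1 counts, with points for animals and lines for group means. The share is lower in fixed pieces, at 8.40 to 9.96% in FFPE 3 weeks, while the ratio is highest there (17.6 in furan and 16.5 in control livers).

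Levels were ordered per length, as CPM per kilobase of transcript, since raw counts grow with transcript length. In furan frozen livers Alb stood first at 60338 ± 1555 CPM per kilobase, followed by Apoa2 (9683 ± 948) and Fabp1 (9064 ± 1028). Apoe, Ttr and Apoa1 came next with means of 5348, 4804 and 3435 CPM per kilobase, then Apoh (1907), Apob (1584) and Ambp (1270 ± 70.3), and Fetub came last at 182 ± 9.29 (SD, n = 4). Neighbours whose ranges overlapped were Apoa2 and Fabp1, and Apoe and Ttr. Control frozen livers gave Alb 53825 ± 2013 and Fetub 268 ± 48.3 CPM per kilobase, with Fabp1 (9912 ± 1450) ahead of Apoa2 (8850 ± 844) but overlapping it. There, every neighbouring pair from Fabp1 down to Apoa1 overlapped, and so did Apob and Ambp. Ranked by mean CPM among all genes, Alb was first in all 6 groups, and Apob, whose transcript has 13934 bases against 518 to 2034 for the others, was ranked 2 to 4. Fetub ranked 455 in furan and 298 in control frozen livers.

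The first question was whether furan changed these genes. Fetub was lower in furan livers in all 3 pieces, to 66.3% of control in frozen, 69.5% in FFPE 18 h and 65.0% in FFPE 3 weeks tissue. In FFPE 18 h, where the spread between animals was smallest, Apoe, Apoa1 and Ambp also fell, to between 80.7 and 87.5% of control. Alb, Ttr, Apoa2 and Apob were not called in any piece, and no member was called higher. The members called lower were thus 1 of 10 in frozen, 4 of 10 in FFPE 18 h and 1 of 10 in FFPE 3 weeks tissue. Of all genes tested, 1.2%, 7.72% and 1.51% were called lower in the same comparisons, 1.57%, 7.82% and 1.07% higher, and 2.78%, 15.5% and 2.58% in either direction. A call is an adjusted p below 0.05 (edgeR quasi-likelihood test, two-sided, adjusted over all genes tested by the method of Benjamini and Hochberg), and log2 fold changes are furan over control with their SE. The median log2 fold change of the 10 genes was -0.15 in frozen, -0.19 in FFPE 18 h and -0.18 in FFPE 3 weeks tissue, beside -0.01, -0.0025 and 0.01 over all genes tested.

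Fetub encodes fetuin-B, a plasma protein of the cystatin superfamily that inhibits the zona-cleaving protease ovastacin in mice. It had 291, 284, 288 and 259 CPM in furan and 376, 525, 369 and 384 CPM in control frozen livers (animals 41, 42, 43 and 44, and animals 2, 3, 4 and 6, an order kept below). All furan libraries lay below all controls, and the value of 525 CPM belonged to the library of control animal 3. The log2 fold change was -0.59 ± 0.13 (adjusted p = 0.0416). Without control animal 3 it was -0.46 (adjusted p = 0.0069), while leaving out any 1 of the other 7 animals kept the direction and ended the call (log2 fold changes of -0.55 to -0.66, adjusted p up to 0.158).

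After 18 h in formalin Fetub stood at 210, 252, 222 and 206 CPM in furan and 315, 317, 318 and 309 CPM in control livers. The 4 controls lay within 10 CPM of each other, and the groups did not overlap (-0.53 ± 0.07, adjusted p = 7.26e-05). The call held without any 1 animal, with log2 fold changes of -0.49 to -0.60. In FFPE 3 weeks Fetub had 107, 111, 124 and 83.1 CPM in furan and 190, 114, 191 and 146 CPM in control livers. Control animal 3, highest in the frozen pieces, was lowest of the controls here and lay among the furan values (-0.62 ± 0.16, adjusted p = 0.0366). Here the call was lost without control animal 2, 4 or 6 or furan animal 41, 42 or 44 (adjusted p 0.0523 to 0.145), always in the same direction.

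Ambp, whose product is cut into alpha-1-microglobulin, a haem and radical scavenger, and bikunin, a protease inhibitor, was lower in every furan than in every control FFPE 18 h library. It had 1043, 1025, 990 and 1000 CPM in furan and 1101, 1133, 1218 and 1103 CPM in control FFPE 18 h livers (-0.19 ± 0.06, adjusted p = 0.0437). This call was lost when any 1 of control animals 2, 3 or 4 or furan animals 42, 43 or 44 was left out (adjusted p 0.0551 to 0.114), and with scaling by total counts (adjusted p = 0.0579). In frozen tissue Ambp ranged from 1480 to 1683 CPM in furan and 1643 to 1947 CPM in control livers (-0.14 ± 0.11, adjusted p = 0.517). The groups overlapped there, as they did in FFPE 3 weeks (464 to 542 CPM in furan, 516 to 612 CPM in control, -0.25 ± 0.10, adjusted p = 0.232).

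Alb had 126528, 119472, 120903 and 124005 CPM in furan and 114479, 104590, 110254 and 108595 CPM in control frozen livers. As a share of total counts every furan library lay above every control, but after TMM scaling, which sets libraries by most genes rather than by their totals, the ranges overlapped (138488 to 154347 scaled CPM in furan and 125122 to 147881 in control). The log2 fold change was 0.13 ± 0.10 (adjusted p = 0.532), with a 95% interval of -0.09 to 0.35. FFPE 18 h gave 0.13 ± 0.07 (interval -0.02 to 0.27, adjusted p = 0.259) and FFPE 3 weeks -0.03 ± 0.07 (interval -0.17 to 0.10, adjusted p = 0.932).

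Ttr ranged from 5240 to 6197 CPM in furan and 5078 to 6786 CPM in control frozen livers, where the library of control animal 3 was highest and the groups overlapped. In FFPE 18 h the unscaled CPM of furan livers (3502 to 3796) lay above those of controls (3272 to 3457). The same held in FFPE 3 weeks (2410 to 2768 in furan, 2129 to 2390 in control). After TMM scaling Ttr overlapped between the groups in both fixed pieces. Its log2 fold changes were -0.02 ± 0.12, 0.06 ± 0.06 and 0.11 ± 0.08 in frozen, FFPE 18 h and FFPE 3 weeks tissue (adjusted p 0.538 to 0.95). The 95% intervals ran from -0.29 to 0.25, -0.06 to 0.19 and -0.06 to 0.28 in the same pieces, so changes within them are not excluded.

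Apoe was the member with the widest spread among frozen controls. It had 7808, 7646, 8001 and 6666 CPM in furan and 7518, 14055, 9112 and 8442 CPM in control frozen livers. The value of 14055 CPM was again that of control animal 3, and the CPM of the groups overlapped, though their TMM-scaled values did not. The log2 fold change of -0.41 ± 0.18 was not called (adjusted p = 0.253) and was -0.18 without that library (adjusted p = 0.365). In FFPE 18 h Apoe had 5205, 4780, 5102 and 4909 CPM in furan and 5755, 6004, 6367 and 6198 CPM in control livers. No furan library reached a control, and animal 3 lay within the control range (-0.31 ± 0.06, adjusted p = 0.00318, called without any 1 animal). FFPE 3 weeks gave 2628 to 2899 CPM in furan and 2693 to 3376 CPM in control livers, which overlapped (-0.18 ± 0.08, adjusted p = 0.361).

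Apoa1, the principal protein of high density lipoprotein, had 2310, 2325, 2734 and 2081 CPM in furan and 3043, 2875, 2854 and 2639 CPM in control FFPE 18 h livers. Furan animal 43 lay above the lowest control, so the groups overlapped, and the log2 fold change was -0.30 ± 0.08 (adjusted p = 0.0179). Without control animal 2 or 3 or furan animal 44 it missed the threshold (adjusted p 0.0516 to 0.058). Frozen pieces had 2883 to 4280 CPM in furan and 3498 to 4452 CPM in control (-0.22 ± 0.14, adjusted p = 0.441). FFPE 3 weeks pieces gave a log2 fold change of -0.20 ± 0.10 (adjusted p = 0.461). Its partner on the same particles, Apoa2, was not called (0.10 ± 0.13, -0.01 ± 0.08 and 0.19 ± 0.09, adjusted p 0.38 to 0.962), though in FFPE 3 weeks the unscaled CPM of furan livers (1605 to 1750) lay above those of controls (1302 to 1579). In the GRCm38 annotation Apoa2 overlaps Tomm40l, so reads of the pair could be shared if strand was not used in counting.

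Apob had 20991, 22694, 20783 and 23835 CPM in furan and 24176, 18314, 23793 and 22385 CPM in control frozen livers, with the library of control animal 3 lowest. Its log2 fold changes were -0.04 ± 0.12, -0.03 ± 0.07 and -0.09 ± 0.06 in frozen, FFPE 18 h and FFPE 3 weeks tissue (adjusted p 0.658 to 0.887). The narrowest interval, in FFPE 3 weeks, ran from -0.22 to 0.04. Apoh, beta-2-glycoprotein I, which binds anionic phospholipids, had 1274 to 1395 CPM in furan and 1428 to 1506 CPM in control FFPE 18 h livers. These ranges did not overlap, yet the log2 fold change of -0.18 ± 0.06 missed the threshold (adjusted p = 0.0657). It was past it with DESeq2 (adjusted p = 0.033), without the low-count filter (adjusted p = 0.0438) and without furan animal 41 (adjusted p = 0.0133). In frozen and FFPE 3 weeks tissue Apoh changed by -0.17 ± 0.12 and -0.25 ± 0.10 (adjusted p = 0.478 and 0.205). Its unscaled CPM in FFPE 3 weeks lay lower in furan (648 to 850) than in control livers (852 to 916), but TMM-scaled values overlapped.

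Fabp1, the cytosolic carrier, had 5817, 4480, 4900 and 4852 CPM in furan and 6678, 5129, 5155 and 4964 CPM in control frozen livers. The ranges overlapped in all 3 pieces, and log2 fold changes were -0.16 ± 0.15, -0.23 ± 0.10 and -0.17 ± 0.10 (adjusted p = 0.596, 0.134 and 0.492). Of the alternatives run, it was past the threshold in FFPE 18 h without control animal 6 (-0.31, adjusted p = 0.0256) or furan animal 41 (-0.31, adjusted p = 0.0476).

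Several of these levels followed the animal through all 3 pieces. Furan animal 43 had the highest and furan animal 44 the lowest Apoa1 of its group in the frozen, the FFPE 18 h and the FFPE 3 weeks piece. Control animal 2 had the highest Fabp1 of the controls in every piece (6678 CPM frozen, 3186 CPM in FFPE 18 h and 1513 CPM in FFPE 3 weeks) and control animal 6 the lowest. Among furan livers the highest Fabp1 was always that of animal 41, which also had the highest Alb, and the lowest that of animal 42. The high Apoe of control animal 3 did not: 14055 CPM in its frozen piece, 6004 CPM in FFPE 18 h and 2905 CPM in FFPE 3 weeks.

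**Figure D3:**
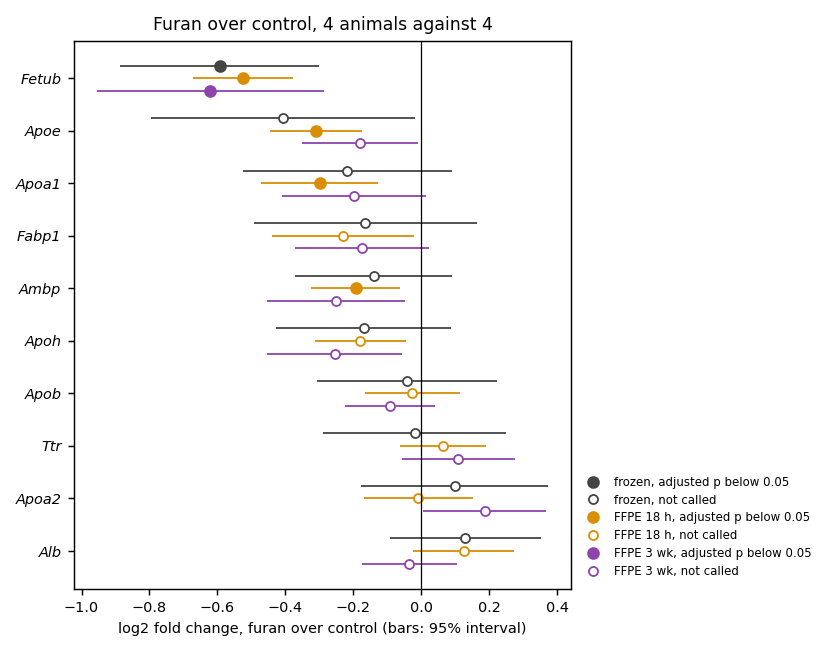
Log2 fold change, furan over control, of each gene (rows) in frozen (dark grey), FFPE 18 h (orange) and FFPE 3 weeks (purple) tissue, 4 animals against 4, with 95% intervals; filled points passed adjusted p below 0.05. Fetub is filled in all pieces (-0.59, -0.53 and -0.62), while Apoe, Apoa1 and Ambp are filled in FFPE 18 h.

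The furan effect itself was compared between pieces as an interaction. No gene passed in FFPE 18 h against frozen tissue or in FFPE 3 weeks against frozen tissue by edgeR (0 and 0 genes called; 239 and 585 at an unadjusted p below 0.05; 0 and 9 by DESeq2), and no member did. For Apoe, called in FFPE 18 h and not in frozen tissue, the difference of the log2 fold changes was 0.11 with a 95% interval of -0.28 to 0.51. For Fetub the differences were 0.08 (-0.23 to 0.40) for FFPE 18 h and -0.03 (-0.49 to 0.43) for FFPE 3 weeks. The calls gained in FFPE 18 h are thus not shown to differ from the frozen effects.

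Other genes of the same system moved in both directions with furan. The counts of the lists below stand beside the shares of all genes tested in frozen, FFPE 18 h and FFPE 3 weeks tissue. These were 1.57%, 7.82% and 1.07% called higher and 1.2%, 7.72% and 1.51% called lower. Of 11 other apolipoproteins, 1 rose in frozen tissue, 1 rose and 2 fell in FFPE 18 h, and 1 rose in FFPE 3 weeks. The riser was Apoc2, the activator of lipoprotein lipase, at 1.08 ± 0.13, 0.82 ± 0.07 and 0.97 ± 0.14 (adjusted p = 0.00184, 9.61e-07 and 5.12e-05). Apoc4 (-0.39 ± 0.06, adjusted p = 0.000451) and Apoa5, a plasma triglyceride-lowering apolipoprotein (-0.38 ± 0.09, adjusted p = 0.00733), fell in FFPE 18 h. Apoc2 and Apoc4 lie side by side downstream of Apoe and Apoc1, and a transcript annotated in GRCm38 overlaps both, so the counts of this pair are less certain. Their medians were -0.16, -0.05 and 0.06 in frozen, FFPE 18 h and FFPE 3 weeks tissue.

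Among 13 other plasma carriers, Afp, alpha-fetoprotein and the neighbour of Alb on the chromosome, rose in frozen tissue (0.98 ± 0.23, adjusted p = 0.0482) and stood at -0.02 ± 0.19 in FFPE 18 h and 0.18 ± 0.33 in FFPE 3 weeks (adjusted p = 0.967 and 0.924). Hrg, which lies beside Fetub, and the transferrin gene Trf fell in FFPE 18 h (-0.23 ± 0.07 and -0.24 ± 0.07, adjusted p = 0.0266 and 0.0348). Serpina7, thyroxine-binding globulin, rose and Trf fell in FFPE 3 weeks (1.05 ± 0.23 and -0.33 ± 0.07). Of the 4 inter-alpha-inhibitor heavy chains, a family with members that are joined to the bikunin that Ambp encodes, only Itih1 was called. It was lower in FFPE 18 h (-0.27 ± 0.07, adjusted p = 0.013) and FFPE 3 weeks (-0.42 ± 0.11, adjusted p = 0.0418). Of 15 genes of lipoprotein assembly and remodelling, the hepatic lipase gene Lipc fell in all 3 pieces (-0.69 ± 0.11, -0.60 ± 0.07 and -0.63 ± 0.15). Pon1, the paraoxonase carried on high density lipoprotein, and Cideb also fell in FFPE 18 h (-0.30 ± 0.07 and -0.29 ± 0.09), so 1, 3 and 1 members fell and 0 rose.

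Of 10 other cellular lipid-binding proteins tested, 0 were called in frozen tissue and 2 rose and 2 fell in FFPE 18 h. There Fabp2, the intestinal type, fell (-0.61 ± 0.10), and Stard4 rose (0.29 ± 0.07). Receptors of these proteins had 0 of 11 called in frozen tissue, 1 higher and 2 lower of 10 in FFPE 18 h and 0 of 10 in FFPE 3 weeks. Fcgrt, the receptor that returns albumin and IgG from endosomes to plasma, fell in FFPE 18 h (-0.54 ± 0.06, adjusted p = 2.2e-05). Lrp1, which takes up Apoe-bearing remnants, fell (-0.27 ± 0.06), and the fatty acid and lipoprotein receptor Cd36 rose (0.36 ± 0.09). Liver-enriched transcription factors had 0 of 16 called in frozen tissue and in FFPE 3 weeks, and 1 higher and 4 lower in FFPE 18 h, among them Rxra (-0.32 ± 0.06) and Cebpa (-0.26 ± 0.06). The 1 that rose was Hnf4a (0.30 ± 0.06, adjusted p = 0.00326), a main regulator of hepatocyte genes.

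The second question was how formalin fixation changed the measured levels in the same livers. In FFPE 18 h, 9 of the 10 genes were lower than in frozen pieces, and in FFPE 3 weeks all 10 were, while 27.3% and 25.8% of all genes tested were called lower (26.6% and 23% higher, 53.9% and 48.8% in either direction). After TMM scaling Fabp1 fell most, to 39.4% of the frozen level in FFPE 18 h and 18.7% in FFPE 3 weeks. Apob fell least, to 94.6% (not called) and 74.9%. In FFPE 3 weeks against FFPE 18 h all 10 were lower again, where 17.5% of all genes were called lower (14.9% higher, 32.4% in either direction). Members' median log2 fold changes were -0.97, -1.88 and -0.94 in these 3 comparisons, beside 0.01, -0.02 and -0.05 over all genes tested. Comparisons are 8 libraries against 8, averaged over treatments, and fixation, extraction kit, number of sections and piece of liver cannot be told apart. Frozen RNA came with integrity numbers above 8.9 and fixed RNA with 1.3 to 2.4, and Rn45s and Lars2, both of which collect ribosomal RNA signal, took 0.893 to 1.53% of counts in FFPE 18 h and 2.98 to 5.43% in FFPE 3 weeks against 0.0783 to 0.259% in frozen libraries. Without these genes the members' shares changed by less than the spread between animals.

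Within each animal, Fabp1 CPM in the FFPE 18 h piece were 46.2 to 59.5% of those in the frozen piece, and in the FFPE 3 weeks piece 22.7 to 27.8%. The fall was present in 8 of 8 animals at both steps. After TMM scaling the fall of Fabp1 was larger than in these unscaled CPM, with log2 fold changes of -1.34 ± 0.10 and -2.42 ± 0.09 (adjusted p = 1.31e-09 and 4.08e-16). Apoa2 changed by -1.04 ± 0.08 and -2.05 ± 0.08, and Apoa1 by -0.88 ± 0.08 and -1.61 ± 0.09, on the log2 scale. The mean count ratio of Apoa1 to Apoa2 differed with the piece, at 0.710 in furan and 0.891 in control frozen, 0.806 in furan and 0.978 in control FFPE 18 h, and 0.932 in furan and 1.23 in control FFPE 3 weeks livers. Ranges of frozen and FFPE 18 h livers overlapped, at 0.613 to 0.818 and 0.682 to 0.950 in furan and 0.736 to 1.13 and 0.902 to 1.08 in control. The ratio was not tested.

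The plasma carriers fell by different amounts. Alb stood at 72.0 to 81.3% of the frozen unscaled CPM in FFPE 18 h and 42.4 to 58.7% in FFPE 3 weeks, lower in 8 of 8 animals each time. After TMM scaling Alb was at 60.9 and 38.0% of the frozen level (-0.71 ± 0.06 and -1.40 ± 0.06, adjusted p = 1.27e-08 and 4.57e-15). Ttr changed by -1.03 ± 0.07 and -1.65 ± 0.07, Ambp by -0.97 ± 0.06 and -2.05 ± 0.07, Fetub by -0.69 ± 0.08 and -1.80 ± 0.12, and Apoh by -1.11 ± 0.07 and -1.96 ± 0.08. In FFPE 3 weeks against FFPE 18 h the change was -1.10 ± 0.05 for Ambp, -1.12 ± 0.10 for Fetub and -0.63 ± 0.04 for Ttr. Apoe changed by -0.97 ± 0.10 and -1.98 ± 0.10, and its CPM in animal 3 were 42.7% of the high frozen value in FFPE 18 h, the lowest of the 8 animals.

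Apob behaved differently from the rest. Its CPM were 26570, 26225, 25616 and 26944 in furan FFPE 18 h livers and 27920, 26942, 26072 and 24383 in control FFPE 18 h livers, above the frozen piece of the same animal in 8 of 8 (109 to 147%). In FFPE 3 weeks they were 88.5 to 126% of the frozen CPM, lower in 5 of 8 animals. After TMM scaling the log2 fold changes were -0.08 ± 0.07 (adjusted p = 0.351) and -0.42 ± 0.07 (adjusted p = 1.16e-05). With scaling by total counts only, the direction turned in both, to 0.25 (adjusted p = 0.00199) in FFPE 18 h and 0.0054 (adjusted p = 0.949) in FFPE 3 weeks. That scaling moved the median of all genes to 0.34 and 0.40, so relative to most genes Apob was not higher, and the other 9 members were lower under both scalings. In FFPE 3 weeks against FFPE 18 h Apob was lower in 8 of 8 animals (-0.35 ± 0.04, adjusted p = 1.77e-07).

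The choice of scaling also moved the split of calls over all genes. Of the calls, 49.4% were higher in FFPE 18 h than in frozen tissue with TMM and 82.2% with total counts, and for FFPE 3 weeks against frozen tissue 47.1% and 75.3%. FFPE 3 weeks against FFPE 18 h gave 45.9% and 59.7%, and furan against control gave 56.6% and 67.2% in frozen, 50.3% and 59.1% in FFPE 18 h and 41.5% and 51.8% in FFPE 3 weeks tissue.

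The ratio of Apob to Fabp1 counts, which no scaling can change, was 4.46 ± 0.669 in furan and 4.08 ± 0.560 in control frozen livers. It was 10.9 ± 0.815 in furan and 9.52 ± 0.840 in control FFPE 18 h livers, and 17.6 ± 1.71 in furan and 16.5 ± 0.651 in control FFPE 3 weeks livers (SD, n = 4 each). The pieces did not overlap, while furan and control overlapped in each. Alb counts were 5.58 times those of Apob in furan and 4.98 times in control frozen livers, 3.56 times in furan and 3.21 times in control FFPE 18 h livers, and 2.71 times in furan and 2.61 times in control FFPE 3 weeks livers.

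**Figure D4:**
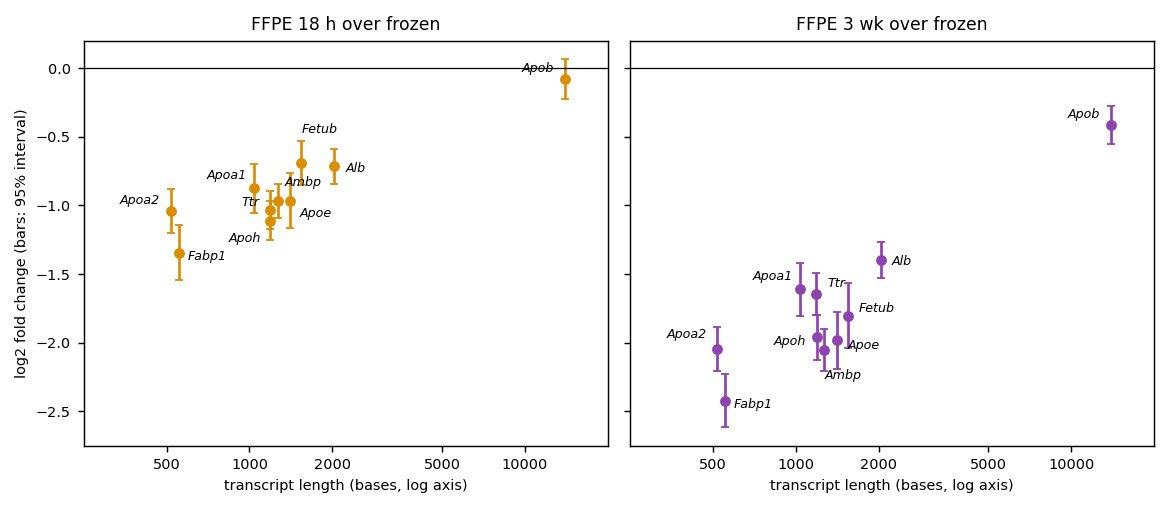
Log2 fold change of FFPE 18 h (left) and FFPE 3 weeks (right) over frozen pieces, 8 libraries against 8 with 95% intervals, against transcript length (bases, log axis). In FFPE 18 h the short transcript of Fabp1 lies lowest (-1.34) and the long one of Apob highest (-0.08), while the shortest, Apoa2 (-1.04), lies level with Ttr (-1.03) and above the longer Apoh (-1.11).

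Fabp1 stood lowest and Apob highest in both fixed pieces, but the members' order followed transcript length only in part. Fabp1 and Apoa2 have transcripts of 553 and 518 bases, Alb has 2034 and Apob 13934, while the other 6, of 1035 to 1544 bases, were spread between -0.69 and -1.11 in FFPE 18 h, a range that takes in both Apoa2 (-1.04) and Alb (-0.71). Apoh, with a longer transcript than Apoa2, stood lower than it at -1.11. Over all tested genes with a length (98.3%), median log2 fold changes in FFPE 18 h were -0.36 under 1 kb, -0.28 from 1 to 2 kb, -0.03 from 2 to 4 kb and 0.22 from 4 kb up. Abundant genes were taken as those with a mean log2 CPM of at least 8, which 516 genes with a length passed in FFPE 18 h and 531 in FFPE 3 weeks. Most members stood far above this floor, as all but Fetub ranked 60 or better in frozen livers. For the abundant genes the medians were -0.82 (15 genes only), -0.72, -0.54 and -0.07, and in FFPE 3 weeks -1.38 (14 genes only), -1.18, -0.70 and 0.03. The members' values thus stood near or below the medians of abundant genes of their length class, which include the members, and whether length or abundance set them was not tested.

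Related genes were lower in fixed tissue too. Of 11 other apolipoproteins 0 were higher and 10 lower in FFPE 18 h than in frozen pieces, with a median of -0.76, and in FFPE 3 weeks 0 and 10, with a median of -1.57. With 18 h of fixation Apof changed by -1.06 ± 0.06, Apom by -1.18 ± 0.08 and Apoc1 by -0.82 ± 0.06. Of 13 other plasma carriers 1 was higher and 10 lower (median -0.82), with Gc, the vitamin D-binding protein, at -0.91 ± 0.06, Afm at -0.82 ± 0.06 and the haem carrier Hpx at -1.13 ± 0.10. All 4 inter-alpha-inhibitor heavy chains were lower, Itih1 at -0.83 ± 0.07, Itih2 at -0.75 ± 0.07 and Itih3 at -0.74 ± 0.09.

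Genes of lipoprotein assembly were 0 higher and 9 lower of 15 in FFPE 18 h (median -0.27), with Pon1 at -1.06 ± 0.10, Lipc at -0.94 ± 0.07 and Sar1b, which acts in export of lipoproteins from the endoplasmic reticulum, at -0.82 ± 0.09. The 11 cellular lipid-binding proteins were 1 higher and 9 lower (median -0.82), with Dbi at -1.11 ± 0.11, Fabp2 at -1.08 ± 0.12 and Scp2 at -0.82 ± 0.08. The receptors were 2 higher and 5 lower of 11 (median -0.26): Cd36 and Fcgrt fell (-0.70 ± 0.12 and -0.59 ± 0.10), and Lrp1 rose (0.63 ± 0.12). Transcription factors had 5 higher and 1 lower of 16 and a median of 0.04, beside 26.6% higher, 27.3% lower and a median of 0.01 over all genes tested. Foxa1 and Prox1 were higher, at 1.30 ± 0.13 and 1.01 ± 0.10.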

How the data were processed

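RNA from livers was depleted of ribosomal RNA and sequenced on an Illumina instrument, per the labels' protocols. The deposited table holds raw counts per gene symbol, 1 column per library; the authors list CASAVA 1.8.2, STAR 2.3.0, featureCounts 1.4.4 and build mm9, per the submitters' processing notes. Gene models and the strand setting are not given in the sources used here.

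Tests used edgeR 4.0.16 under R 4.3.3 (TMM, filterByExpr, robust quasi-likelihood fits on the groups of each comparison). The procedure was also run on simulated counts, drawn independently for each library, so animals shared between pieces were not covered. The SE was taken as the size of the log2 fold change over the root of F. CPM are per total counts, unless called scaled. The transcript length is the longest found for a symbol in GENCODE M21 or its synonyms (97.3% of genes).

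Replicates are separate animals, and labels give the same animal numbers in the 3 pieces of a liver. Deviations from group means correlated at -0.0041 to 0.239 between pieces of the same animal, and 21 of 24 comparisons were highest with the own animal. Alternatives were DESeq2 1.42.0, other scalings, no low-count filter, 1 fit over all libraries, leaving out each animal and the animal as a block. Members and gene lists were chosen with earlier results of these data known. Of each related list, up to 3 called genes with the smallest p were named in 3 comparisons (furan in frozen and in FFPE 18 h, and FFPE 18 h against frozen); values in other comparisons, Serpina7 and Trf in FFPE 3 weeks among them, follow from counts. Genes that this rule also names, 1 in each of 2 lists, are not reported here.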

Additional observations from a re-analysis of the deposited data

Results flagged for a closer look

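Among 66 sets of 4 libraries (each gene and the summed share in 6 groups), 4 held a library whose gap to the nearest other exceeded, relative to the set's range, the 95% limit of Dixon's test, which chance passes in about 1 of 20 sets. All 4 were frozen controls. Fetub stood at 525 CPM in control animal 3 and at 369 to 384 CPM in the others (gap 0.902 of the range). Apoh was low in the same library, at 2157 CPM against 2575 to 2624 CPM (0.895). Ambp was high in control animal 4, at 1947 CPM against 1643 to 1682 CPM (0.872), and Fabp1 in control animal 2, at 6678 CPM against 4964 to 5155 CPM (0.888). The high Ambp of animal 4 and the high Fabp1 of animal 2 were the highest of the controls in both fixed pieces of the same livers, and the low Apoh of animal 3 was the lowest there, while the Fetub of animal 3 was highest in the frozen piece only.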

How the results depend on the processing

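Of 1170 members' estimates under an alternative, 1135 stayed on the same side of the threshold (called or not called), 26 lost and 7 gained a call, all in furan comparisons, and 2 reversed: Apob in FFPE 18 h and FFPE 3 weeks against frozen tissue, at 0.25 and 0.0054 with total counts only. Estimates not called under either setting changed sign in 40 cases, with sizes up to 0.12. Leaving out 1 animal at a time gave 99 to 1148 furan calls in frozen tissue, with 0 to 1 members called. The count was 392 with all animals and 1148 without control animal 3. In FFPE 18 h it gave 730 to 963 genes called higher and 852 to 1154 lower, with 2 to 6 members called. FFPE 3 weeks gave 218 to 280 genes and 0 to 1 members, and the FFPE 3 weeks interaction 0 to 1 genes. DESeq2 called 1066 genes in frozen tissue and 9 for that interaction. One fit over all 24 libraries called 232 genes higher and 285 lower of 14901 in frozen tissue, with 2 members called (392 genes and 1 member in the separate fit). It called 305 genes and 1 member in FFPE 18 h (2208 and 4 in the separate fit). In FFPE 3 weeks it called 1549 genes and 2 members (335 and 1). FFPE 18 h against frozen gave 5224 genes in that fit (8006), and the FFPE 3 weeks interaction 4. The members gained in the fit over all libraries were Apoe in frozen tissue (adjusted p = 0.0499) and Ambp in FFPE 3 weeks (adjusted p = 0.0431). Those lost in FFPE 18 h were Ambp, Apoa1 and Apoe (adjusted p 0.229 to 0.342), and the cause was not tested. With the animal as replicate block, calls were 8522 for FFPE 18 h against frozen, 6719 for FFPE 3 weeks against frozen and 5162 for FFPE 3 weeks against FFPE 18 h, and the block changed no call of a member. The FFPE 3 weeks libraries are the shallowest, with 615 to 1188 counts of Fetub, the least abundant member, in furan and 1202 to 2074 in control libraries.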

Other observations

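For each of the 10 genes, the gene with the most similar pattern was sought among 4315 genes of mean log2 CPM of at least 5, as Pearson's r of log2 CPM across 24 libraries after each piece's mean was subtracted. These r describe libraries that share animals and treatment, and carry no test. Apoe was most like Col18a1 (r = 0.952), which encodes a basement membrane collagen, and r was 0.893 without the frozen library of control animal 3, a choice made after seeing the data. Fetub was most like 0610011F06Rik (0.942, and 0.931 without that library). Fabp1 was most like Cat, the peroxisomal catalase (0.879), Alb like Gc, the vitamin D-binding protein and a relative of albumin (0.858), and Apob like Hc, complement C5 (0.859). Apoh was most like Cpq (0.896), Apoa1 like Pnpla7 (0.873), Ambp like Man2b1 (0.872) and Apoa2 like Zfand5 (0.838). Ttr was most like Atp9a (0.836), which dropped to 0.729 without that library.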
